A study of Homo sapiens with 17 samples.

Results

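The classical targets of type I interferon were followed in RNA and in ribosome footprints over 5 states of human BJ fibroblasts. The genes were chosen by name, with earlier results of these data known, and no value enters the rule: IFIT1 (ENST00000371804), IFIT2 (ENST00000371826), IFIT3 (ENST00000371818), ISG15 (ENST00000379389), MX1 (ENST00000398600), OAS1 (ENST00000445409), IFI6 (ENST00000339145), STAT2 (ENST00000314128) and IRF9 (ENST00000396864). All 9 were found among the 9699 transcripts of the table, 1 transcript a gene. BJ cells are foreskin fibroblasts, immortalized here with telomerase (hTERT), and every state was profiled by RNA-Seq and by Ribo-Seq, the sequencing of the mRNA fragments that ribosomes protect. Proliferating cells grew in medium with serum, and quiescent cells were deprived of it. Pre-senescent and senescent cells carried an inducible RASG12V and were kept in tamoxifen (4-OHT), the former for 5 days and the latter for 14. The cells labelled transformed expressed RASG12V constitutively from a retrovirus, together with other changes that include a knockdown of p16INK4A and SV40 small T. All states therefore shared the hTERT background, the pre-senescent and senescent states shared the drug, and those and the cells labelled transformed are described with the oncogene. The methods of the study do not say whether the proliferating and quiescent cells also carried the inducible construct.

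Type I interferon is a cytokine that cells release when they sense foreign or misplaced nucleic acids. Its receptor activates the kinases JAK1 and TYK2, which phosphorylate STAT proteins, STAT2 among them. With IRF9 these form the complex ISGF3, which binds the interferon-stimulated response element (ISRE) in the promoters of its targets. Among the targets are the IFIT proteins, which bind foreign RNA and block its translation, ISG15, a ubiquitin-like modifier, MX1, a dynamin-like GTPase that blocks virus particles, OAS1, an enzyme that makes 2'-5' oligoadenylate and so activates RNase L, and IFI6, a small membrane protein of the mitochondria and endoplasmic reticulum. STAT2 and IRF9 are themselves interferon targets. In fibroblasts a low level of these genes is kept up by small amounts of interferon that the cells make themselves.

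Each assay had 6 columns, with 1 value for each state and 2 values for proliferation, since proliferating cells were sequenced in both of 2 sequencer runs. Quiescence and pre-senescence belonged to run 1, senescence and the transformed state to run 2, and each state was set against the proliferating column of its own run. No state had replicate columns, so no test was possible, and a difference is called here when it reached 2-fold. Values are FPKM, fragments per kilobase scaled to the size of the library, over the whole transcript for RNA-Seq and over the coding sequence for Ribo-Seq, and none is below 1, so that a value of 1.00 means 1 or less. The only measure of spread is the difference between the proliferating columns of the 2 runs, which mixes the culture with the run. The sample list of the study gives the RNA-Seq libraries of run 1 as paired-end and marks those of run 2 as not. Its size had a median of 0.34 and a 95th percentile of 1.19 on the log2 scale over 9521 transcripts in RNA-Seq, and of 0.49 and 1.70 over 9512 in Ribo-Seq. All columns are from bulk cultures, in which fewer cells expressing a gene and less RNA per cell cannot be told apart.

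The identity of the columns was checked once. All 10 fibroblast markers were present, summing to 5249 to 7515 FPKM in RNA-Seq. VIM was the largest part of each sum, at 2956 to 4881 FPKM, and single markers varied between states. RNA of DCN was at 27.6 FPKM in run 1 proliferation, 82.6 in quiescence and 3.68 in pre-senescence. COL1A1 was at 1328 FPKM in run 2 proliferation, 51.6 in senescence and 762 in the column labelled transformed. Of the 5 leukocyte markers only CD68 and CD14 were analysed here, summing to 39.3 to 133 FPKM with CD14 at no more than 1.67, of the 5 epithelial markers only KRT8 and KRT18 (103 to 273 FPKM), and of the 4 endothelial markers none. The titles and condition labels of 2 Ribo-Seq samples, senescence and run 2 proliferation, contradict each other, and both were grouped by title. Under that grouping the proliferation antigen MKI67 stood at 1.00 FPKM in senescence and 43.0 in run 2 proliferation in Ribo-Seq, beside 1.00 and 44.0 in RNA-Seq. In the column labelled transformed, RNA of CDKN2A, the gene of p16INK4A, was at 12.6 FPKM against 6.75 in run 2 proliferation, which goes against the labelled knockdown, although it was at 17.2 in run 1 proliferation and footprints were at 5.51 against 8.92. The estrogen receptor gene ESR1, part of which tamoxifen-inducible fusions carry, stood at 19.2 and 102 FPKM of RNA in the proliferating columns of runs 1 and 2 and at 1.00 in the column labelled transformed, and HRAS at 2415, 1284 and 312. In quiescence and pre-senescence ESR1 RNA was at 9.31 and 15.9 FPKM and HRAS RNA at 1254 and 2102. In senescence they were at 144 and 2087 FPKM, both above run 2 proliferation. The signal of both genes was thus not limited to the columns kept in tamoxifen.

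The promoters are shown first, because ISGF3 binds its targets at the ISRE. RefSeq promoter windows (GRCh38.p14, 250 bases before to 50 after a start) were matched by symbol for 8 of the 9 genes, with more than 1 start for IFIT3 and MX1, and not for IFIT2. The ISRE core, GAAA followed by any 2 bases and a further GAAA, was searched on both strands, and overlapping matches were counted separately. It lay before a start in 5 of the 8 genes, ISG15, IFI6, IFIT1, IFIT3 and MX1, against 3.51% of the 7292 genes of the table that had a window. No match was found before any start of STAT2, OAS1 or IRF9, which says only that these letters are not in those windows. The stretches around the matches are printed 5′ to 3′ on the strand of the gene, with the matched letters in capitals, for the 4 genes that had 2 or more matches before a single start.
ISG15, chr1:1013364-1013419, plus strand: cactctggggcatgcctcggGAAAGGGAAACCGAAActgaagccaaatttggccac
IFI6, chr1:27672256-27672368, minus strand: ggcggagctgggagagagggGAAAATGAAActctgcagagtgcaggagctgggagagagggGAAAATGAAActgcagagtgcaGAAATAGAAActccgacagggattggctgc
IFIT1, chr10:89392487-89392549, plus strand: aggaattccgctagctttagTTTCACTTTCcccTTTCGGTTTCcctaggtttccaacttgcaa
IFIT3, first start, chr10:89327821-89327904, plus strand: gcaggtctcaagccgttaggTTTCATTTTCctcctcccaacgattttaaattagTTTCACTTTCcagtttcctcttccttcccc
IFIT3, second start, chr10:89332415-89332507, plus strand: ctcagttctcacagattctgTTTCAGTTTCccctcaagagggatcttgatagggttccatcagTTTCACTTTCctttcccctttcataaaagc

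In ISG15 the 2 matches overlap, in a stretch from 133 to 78 bases before the start, IFI6 has 3 matches, and IFIT1 and each IFIT3 start have 2. MX1 had a single match before a start, in 1 of its 3 windows. The genes printed here went different ways in the states described next.

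The RNA levels in proliferating cells of run 1 are given in falling order on the scale per kilobase. ISG15 (48.9 FPKM) and IFI6 (48.5) stood highest, IFIT1 (21.1), IFIT3 (19.8), STAT2 (18.9) and IRF9 (17.9) followed, and IFIT2 (9.57), OAS1 (2.79) and MX1 (1.28) were lowest. ISG15 and IFI6 differed by less than their own differences between the 2 proliferating columns, and so did IFIT1, IFIT3, STAT2 and IRF9. The order within these groups therefore cannot be set. IFIT2 lay below IRF9 by less than its own difference between the columns, and in run 2 STAT2 (29.7 FPKM) stood above ISG15 (21.8). Run 2 proliferation was lower for 8 of the 9 genes in RNA-Seq and for the same number in Ribo-Seq, with STAT2 the gene that was higher in each assay. In RNA-Seq the lower level in run 2 reached 2-fold for 3 genes, IFIT2 (2.59-fold), ISG15 (2.25-fold) and OAS1 (at least 2.79-fold), and none was 2-fold higher. The background was 3.05% of all transcripts lower and 4.93% higher. In Ribo-Seq 4 genes were 2-fold lower in run 2 (IFIT1, MX1, OAS1 and IFI6) and none was higher, against a background of 8.37% lower and 10.5% higher. The baseline of these genes thus differed between the proliferating columns of the 2 runs by as much as some of the differences between states. Culture and run cannot be told apart in it. Each difference below is also read against the control of the other run where that ends the call.

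**Figure D1:**
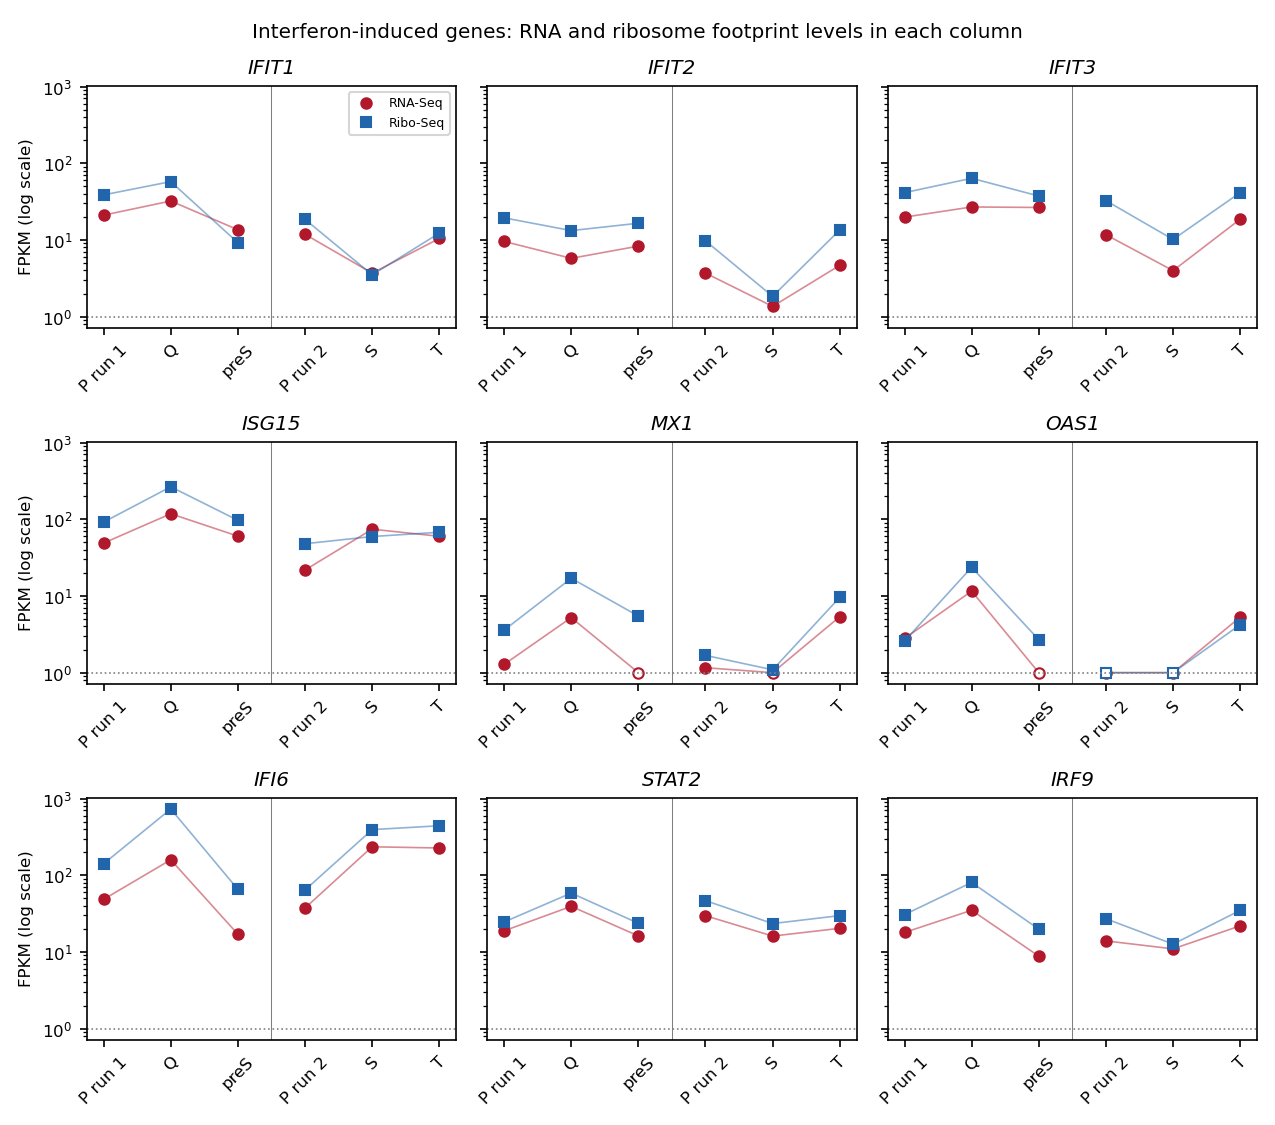
RNA-Seq (red circles) and Ribo-Seq (blue squares) levels of each gene in FPKM on a log axis, for proliferation (P), quiescence (Q), pre-senescence (preS), senescence (S) and the column labelled transformed (T); each point is 1 column, lines join columns of 1 sequencer run, and open symbols on the dotted line are values of 1 or less. IFI6 reached 730.3 FPKM of footprints in quiescence, while OAS1 was at 1 or less in run 2 proliferation and in senescence.

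The transducers STAT2 and IRF9 were highest in quiescence. STAT2 RNA measured 18.9 FPKM in run 1 proliferation, 39.3 in quiescence, 16.2 in pre-senescence, 29.7 in run 2 proliferation, 16.1 in senescence and 20.3 in the column labelled transformed. Its footprints measured 24.6, 58.5, 23.6, 46.7, 23.4 and 29.8 FPKM in the same order. STAT2 was thus 2.08-fold higher in RNA and 2.38-fold higher in footprints in quiescence, and 1.84-fold and 1.99-fold lower in senescence, just inside the 2-fold limit. Against the control of run 2 the quiescent difference shrank to 1.32-fold in RNA and 1.25-fold in footprints, which ended both calls.

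IRF9, the DNA-binding subunit of ISGF3, was likewise highest in quiescence. Its RNA measured 17.9, 34.95, 8.81, 13.9, 11.0 and 21.9 FPKM in the order given for STAT2, and its footprints 30.7, 80.5, 19.8, 27.1, 12.7 and 34.9. In quiescence IRF9 was 1.95-fold higher in RNA and 2.63-fold higher in footprints, in pre-senescence 2.04-fold lower in RNA and 1.55-fold lower in footprints, and in senescence 1.27-fold lower in RNA but 2.14-fold lower in footprints. The pre-senescent RNA call ended against the other control, at 1.58-fold lower. In the column labelled transformed it was 1.57-fold higher in RNA and 1.29-fold higher in footprints, both under 2-fold.

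The IFIT genes lie side by side on chromosome 10, with IFIT2, IFIT3, IFIT1B and IFIT1 following each other in the RefSeq order, and all 3 that were analysed were low in senescence. They are paralogs with shared stretches of sequence, and reads that matched more than 1 of them had been dropped. IFIT1 RNA measured 21.1, 32.2, 13.6, 11.8, 3.69 and 10.5 FPKM in the same order of columns, and its footprints 38.7, 57.6, 9.20, 18.5, 3.51 and 12.3. The senescent column was the lowest in each assay, 3.21-fold below its control in RNA and 5.28-fold below it in footprints. At day 5 IFIT1 footprints were already 4.20-fold lower, whereas its RNA was 1.55-fold lower.

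IFIT2 and IFIT3 shared the low senescent level but not the low footprint level at day 5. IFIT2 RNA measured 9.57, 5.76, 8.31, 3.70, 1.36 and 4.67 FPKM, and its footprints 19.4, 13.2, 16.5, 9.74, 1.84 and 13.5. IFIT3 RNA measured 19.8, 26.9, 26.5, 11.7, 3.98 and 18.7 FPKM, and its footprints 41.4, 63.7, 37.4, 32.5, 10.2 and 41.5. In senescence IFIT2 was 2.72-fold lower in RNA and 5.29-fold lower in footprints, and IFIT3 2.94-fold and 3.20-fold lower. IFIT2 was the single gene of the 9 below its control in quiescence, by 1.66-fold in RNA and 1.47-fold in footprints, within 2-fold and within its difference between the controls. All 3 IFIT genes stayed below 2-fold in quiescence and in the column labelled transformed in each assay, but not against the other control. There IFIT1 was 2.72-fold higher in RNA and 3.11-fold in footprints in quiescence, and IFIT3 2.30-fold higher in RNA. IFIT1 was then 2.01-fold lower in RNA and 3.15-fold in footprints in the column labelled transformed, and IFIT2 2.05-fold lower in RNA. Against the control of run 1, which was higher for all 3, the senescent differences were larger, between 4.98-fold and 7.04-fold lower in RNA and between 4.07-fold and 11.0-fold lower in footprints.

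ISG15, the ubiquitin-like modifier, was higher than its control in every state in RNA, but its footprints reached 2-fold only in quiescence. Its RNA measured 48.9, 117.9, 60.2, 21.8, 74.1 and 59.9 FPKM, and its footprints 91.8, 264.7, 96.8, 47.9, 59.5 and 67.6. In quiescence the difference was 2.41-fold in RNA and 2.89-fold in footprints, and 5.41-fold and 5.52-fold against the other control. At day 5 it was 1.23-fold in RNA and 1.05-fold in footprints. In senescence RNA was 3.40-fold higher with footprints 1.24-fold higher, and in the column labelled transformed 2.75-fold with 1.41-fold. These last RNA differences rest on the low ISG15 level of the run 2 control, since against run 1 they were 1.52-fold and 1.22-fold higher, both under the call.

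MX1 and OAS1, direct antiviral effectors, were near the limit of the table in most columns and clearly above it in quiescence and in the column labelled transformed. MX1 RNA measured 1.28, 5.22, 1.00, 1.16, 1.00 and 5.37 FPKM, and its footprints 3.58, 17.0, 5.47, 1.68, 1.09 and 9.59. OAS1 RNA measured 2.79, 11.6, 1.00, 1.00, 1.00 and 5.31 FPKM, and its footprints 2.58, 23.6, 2.69, 1.00, 1.00 and 4.23. In quiescence MX1 was 4.08-fold higher in RNA and 4.75-fold in footprints, and OAS1 4.15-fold and 9.16-fold. In the column labelled transformed MX1 was 4.63-fold and 5.71-fold higher, and OAS1, whose control was at 1 or less, at least 5.31-fold and at least 4.23-fold. For MX1 the calls in the column labelled transformed held against the other control (4.20-fold and 2.68-fold), whereas for OAS1 they ended at 1.90-fold in RNA and 1.64-fold in footprints. The quiescent calls of both genes were larger against the other control, at least 11.6-fold in OAS1 RNA and 10.1-fold in MX1 footprints. MX1 was at least 1.28-fold lower in RNA and 1.53-fold higher in footprints at day 5, and at least 1.16-fold and 1.54-fold lower in senescence. At day 5 OAS1 RNA was at least 2.79-fold lower while its footprints were 1.04-fold higher. This RNA difference was no larger than that between the controls. The call ended against the other control, where OAS1 RNA was also at 1 or less. In senescence OAS1 was at 1 or less in state and control, so no fold is given.

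IFI6 had the widest range of the 9 genes in FPKM. Its RNA measured 48.5, 159, 17.0, 37.4, 234.8 and 226.6 FPKM in the same order of columns, and its footprints 141, 730.3, 65.4, 64.2, 393 and 441. IFI6 was high in quiescence, in senescence and in the column labelled transformed, and low at day 5 of RAS. The differences in RNA were 3.28-fold higher, 6.28-fold higher, 6.06-fold higher and 2.85-fold lower, and in footprints 5.18-fold, 6.12-fold and 6.87-fold higher and 2.16-fold lower. The 3 higher calls held against the other control in each assay, with footprints 11.4-fold, 2.79-fold and 3.13-fold higher, and so did the lower RNA level at day 5 (2.20-fold), but the lower footprint level at day 5 did not (1.02-fold higher).

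Quiescence was the state in which the genes were most uniformly high. In RNA-Seq 5 of the 9 genes were at least 2-fold higher (ISG15, MX1, OAS1, IFI6 and STAT2) and none was 2-fold lower, against 4.11% of all transcripts higher and 2.43% lower, and 8 of 9 lay above their control. The median log2 ratio of the genes was 1.06, beside -0.01 over 9473 transcripts. In Ribo-Seq 6 were higher, the same 5 and IRF9, and none lower, with a background of 9.31% higher and 8.2% lower and a median of 1.39 beside -0.07.

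At day 5 of RAS, in pre-senescence, the genes were level or lower. In RNA-Seq none of the 9 was 2-fold higher and 3 were lower (OAS1, IFI6 and IRF9), against a background of 1.82% higher and 2.05% lower, with a median of -0.36 beside 0.04 over all transcripts. In Ribo-Seq none was higher and 2 were lower (IFIT1 and IFI6), against 7.31% higher and 10.6% lower, with a median of -0.15 beside -0.12. With a pseudocount of 1 only IFI6 of the 3 RNA calls was left, and of the footprint calls only IFIT1 was larger than its difference between the controls. This state depended most on the control: against run 2 proliferation IFIT2 (2.25-fold), IFIT3 (2.27-fold) and ISG15 (2.76-fold) were higher in RNA with IFI6 alone lower, and ISG15 (2.02-fold), MX1 (3.26-fold) and OAS1 (at least 2.69-fold) were higher in footprints with IFIT1 alone lower (2.02-fold).

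At day 14, in senescence, the genes split. In RNA-Seq 2 of the 8 genes above the limit were at least 2-fold higher (ISG15 and IFI6) and 3 lower (IFIT1, IFIT2 and IFIT3), against 7.19% of transcripts higher and 13.2% lower, with a median of -0.61 beside -0.02. In Ribo-Seq IFI6 alone was higher and 4 were lower, the 3 IFIT genes and IRF9, against 11.2% higher and 16.8% lower, with a median of -1.05 beside -0.12. The IFIT2 RNA call ended with a pseudocount of 1 (log2 ratio of -0.99) and the IRF9 call with the median of all transcripts subtracted (-0.98). The 2-fold background is wide in this state, so the share of called genes says less here than in quiescence.

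In the column labelled transformed the genes higher in RNA were those of quiescence without STAT2. In RNA-Seq 4 of 9 were at least 2-fold higher (ISG15, MX1, OAS1 and IFI6) and none lower, against 4.97% higher and 5.39% lower, with a median of 0.67 beside 0.09. In Ribo-Seq 3 were higher (MX1, OAS1 and IFI6) and none lower, against 5.34% higher and 7.44% lower, with a median of 0.47 beside 0.01. STAT2 lay below its control in this column, by 1.46-fold in RNA and 1.57-fold in footprints, less than its difference between the controls. Against run 1 proliferation MX1 and IFI6 were the calls that held in each assay.

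**Figure D2:**
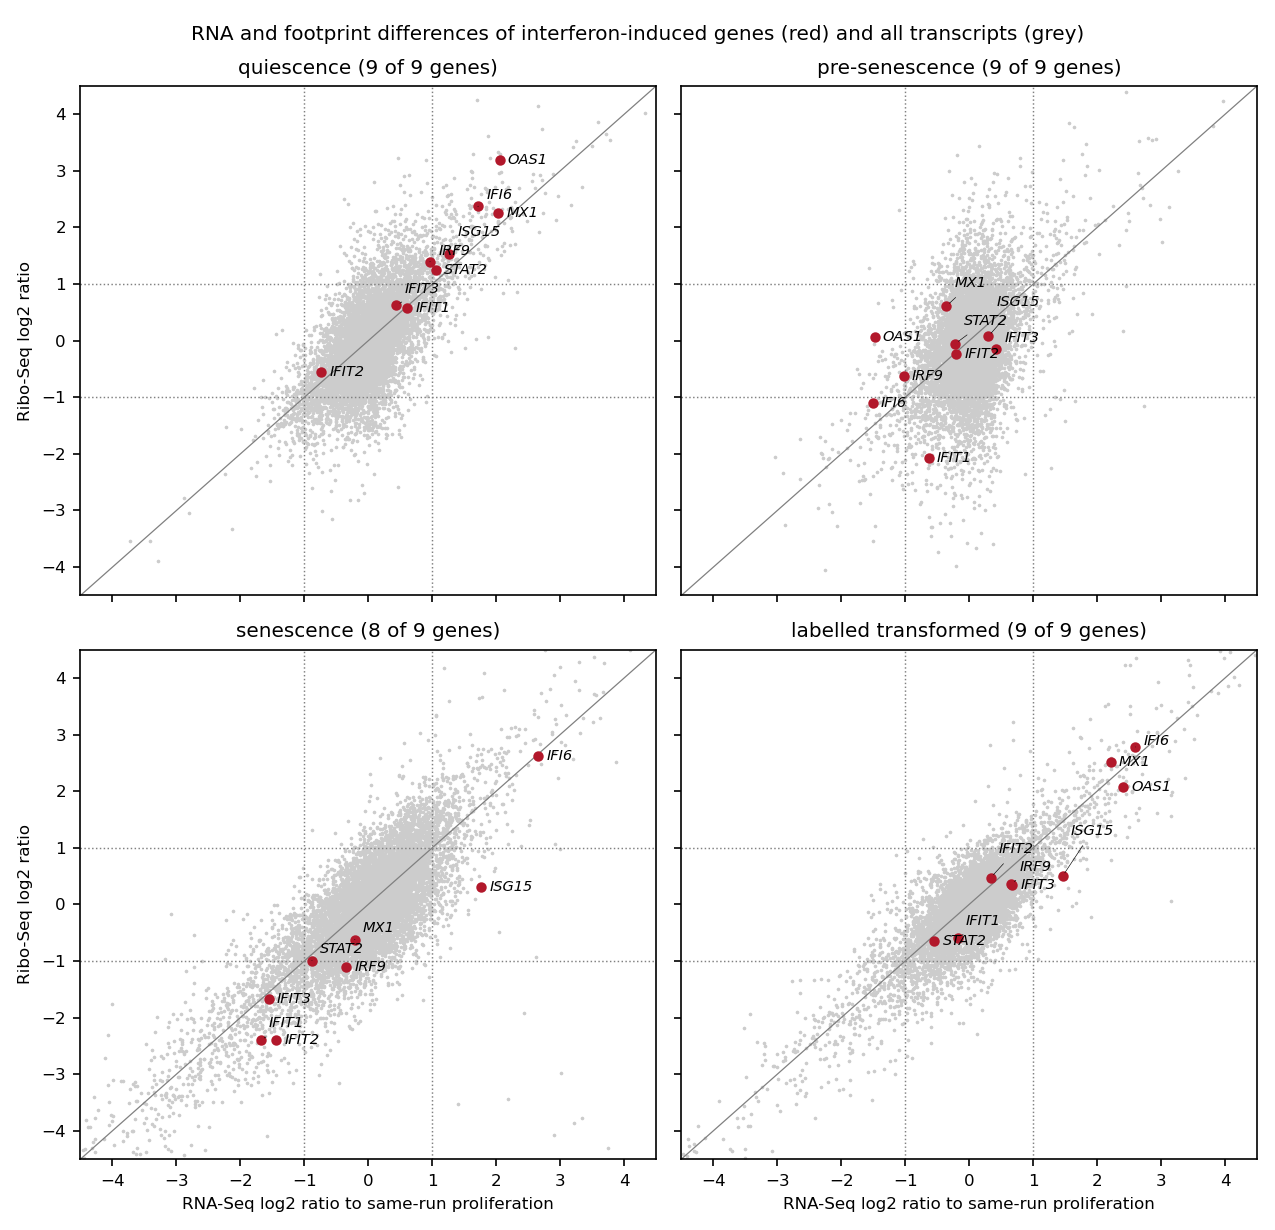
RNA-Seq log2 ratio (horizontal) against Ribo-Seq log2 ratio (vertical) of each state to the proliferating column of its run, for the interferon-induced genes (red, named) and all transcripts (grey); dotted lines mark 2-fold, the diagonal marks equal ratios, and grey points beyond 4.5 on either axis are not drawn. In quiescence 8 of 9 genes lie above 0 on both axes, and in senescence IFI6 and the IFIT genes lie at opposite ends with ISG15 below the diagonal.

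Translational efficiency (TE), the log2 of the footprint level over the RNA level, shows whether the ribosome load of an mRNA moved with its amount. In run 1 proliferation the genes had a median TE of 0.91, beside 0.41 over 9139 transcripts, and 7 of 9 lay above that median. In quiescence all 9 did, with a median of 1.20 beside 0.33, and in pre-senescence 6 of the 7 with a TE (0.69 beside 0.26). In run 2 proliferation all 8 with a TE did, with a median of 0.87 beside 0.43. In senescence 4 of the 7 with a TE did (0.44 beside 0.38), and in the column labelled transformed 6 of 9 (0.67 beside 0.36). TE is compared between genes on FPKM per kilobase, of the transcript for RNA and of the coding sequence for footprints.

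Most differences of the genes were carried by RNA and footprints alike, and few TE differences reached 2-fold. In quiescence OAS1 alone was 2-fold higher in TE (by 1.14, from -0.11 to 1.03) and none of the 9 was lower, against 3.09% higher and 3.97% lower. The control levels of OAS1 were 2.79 FPKM of RNA and 2.58 of footprints. In pre-senescence none of 7 was higher and IFIT1 was lower, from 0.88 to -0.56, a difference of -1.44, against 4.92% higher and 8.32% lower. In senescence none of 7 was higher and ISG15 was lower, from 1.14 to -0.32, a difference of -1.45, against 2.68% higher and 5.87% lower. In the column labelled transformed none of 8 was higher or lower, against 0.899% and 1.79%, with ISG15 nearest the limit at -0.96.

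The low TE of IFIT1 at day 5 and of ISG15 at day 14 were both larger than the difference of that gene between the controls (-0.23 and 0.23) and stayed past 2-fold against the other control, at -1.21 and -1.22. All 7 genes with a TE in senescence lay below their run 2 control, between -1.45 and -0.04, beside a median of -0.04 over 8839 transcripts. For IFIT3, IFI6 and STAT2 the difference was smaller than that between the controls. Against run 1 proliferation IFIT3 (0.29) and STAT2 (0.16) lay above the control instead. STAT2 had the steadiest TE, between 0.38 and 0.65 over the 6 columns, and IFI6 the highest single value, 2.20 in quiescence, above the 95th percentile of all transcripts there (1.83).

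The wider pathway was described through lists chosen by name, without the 9 genes. Of 8 receptors, kinases and STATs upstream, none reached 2-fold in RNA in any state, and JAK2 had the largest RNA ratio, 1.45-fold lower in senescence. In footprints 1 was higher in pre-senescence, TYK2 (2.33-fold), and 1 in senescence, IFNAR1 (2.75-fold), both named after their values were seen. Over all transcripts 7.31% and 11.2% were higher in footprints in these states. Against the other control TYK2 ended at 1.99-fold. There 1 gene in senescence and 2 in the column labelled transformed were higher in RNA, and 5 and 4 in footprints. In footprints 2 genes were lower in quiescence and 2 in pre-senescence against that control. No share of all transcripts was computed against that control. None of the 9 interferon genes listed was analysed here.

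Among 12 of 14 genes of nucleic acid sensing, RNA of 4 was at least 2-fold higher in quiescence, 0 in pre-senescence and senescence and 2 in the column labelled transformed, with 0, 0, 3 and 0 lower. Over all transcripts 4.11%, 1.82%, 7.19% and 4.97% were higher in the same order of states, and 2.43%, 2.05%, 13.2% and 5.39% lower. IRF7, the interferon-inducible activator of interferon genes, was 2.44-fold higher in RNA in quiescence and 4.05-fold against the other control. It was 2.63-fold higher in RNA in the column labelled transformed, which ended against the other control (1.59-fold), and footprints were at 1.85 FPKM against 1.97. IFIH1, the sensor of long double-stranded RNA, was 2.44-fold higher in quiescence. MB21D1, which encodes the DNA sensor cGAS, was 2.88-fold lower in RNA and 4.17-fold lower in footprints in senescence, and 4.73-fold and 4.54-fold against the other control. TMEM173, which encodes STING, was 2.64-fold lower in RNA in senescence and 2.32-fold higher in quiescence, and both RNA calls ended against the other control, at 1.91-fold and 1.67-fold.

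Of the list of other type I interferon-induced effectors, 47 of 55 were analysed here. The list had more members higher than lower in quiescence and in the column labelled transformed. It had more lower than higher in pre-senescence and in senescence. In quiescence RNA of 16 of 45 tested was at least 2-fold higher and of 1 lower, with a median log2 ratio of 0.67. In pre-senescence 1 of 44 was higher and 3 lower, with a median of -0.19. In senescence 1 of 42 was higher and 13 lower, with a median of -0.57. Of 47 in the column labelled transformed 10 were higher and 3 lower, with a median of 0.48. In Ribo-Seq the higher and lower counts were 16 and 1 of 47, 1 and 9 of 46, 1 and 19 of 42, and 13 and 4 of 47. Against the other control they were 5 and 15 of 46 in pre-senescence and 6 and 16 of 46 in senescence. The RNA counts were then 2 and 6 of 43 in pre-senescence. Over all transcripts 4.11%, 1.82%, 7.19% and 4.97% were higher in RNA in the same order of states, and 2.43%, 2.05%, 13.2% and 5.39% lower. In Ribo-Seq 9.31%, 7.31%, 11.2% and 5.34% were higher, and 8.2%, 10.6%, 16.8% and 7.44% lower. These backgrounds belong to the same-run counts, and none was computed against the other control.

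The single effector at least 2-fold higher in RNA in senescence was IFI27, which is, like IFI6, a small membrane protein induced by interferon. Its RNA stood at 8.44 FPKM against 1 or less, at least 8.44-fold higher, and in the column labelled transformed at 15.8 FPKM, at least 15.8-fold higher. In quiescence IFI27 RNA was 4.90-fold higher (5.10 against 1.04 FPKM), with footprints at 4.54 against 4.97. Its senescent footprints stood at 7.07 FPKM against 1 or less, and this call ended against the other control, at 1.42-fold. IFI35 was 2.52-fold higher in quiescence and 5.26-fold lower in senescence. SAMD9 was 4.12-fold lower in senescence and at least 7.00-fold lower in the column labelled transformed, and TRIM22, an antiviral ubiquitin ligase, was 6.73-fold lower in that column and 1.01-fold lower in senescence, but 2.71-fold lower and 2.46-fold higher against the other control.

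Among 8 of 14 interferon-gamma and IRF1 genes, 5 of 8 were at least 2-fold higher in RNA in the column labelled transformed and none lower, while in the other states none was higher and 2 of 6 were lower in senescence. Over all transcripts 13.2% were lower in senescence and 4.97% higher in the column labelled transformed. CXCL10, a chemokine for T cells, stood there at 36.4 FPKM of RNA and 163 of footprints, against 1 or less in its control, and at 1.38 and 2.63 in senescence. CXCL11 stood at 6.07 and 20.5 FPKM in that column. GBP4, a guanylate-binding protein, was at least 3.69-fold higher there in RNA, whereas GBP1, of the same family, was 4.82-fold lower in senescence. Of 9 of 12 negative regulators, USP18, which removes ISG15 from its targets and restrains the receptor, was 2.15-fold higher in RNA in quiescence, and SOCS3, an inhibitor of JAK kinases, was 2.43-fold lower in quiescence and 3.18-fold higher in the column labelled transformed. Against the other control the SOCS3 values were 1.54-fold lower, which ended the call, and 2.01-fold higher. PTPN1 was 2.01-fold higher and IRF2 2.08-fold lower in RNA in senescence, and both calls ended against the other control, at 1.73-fold and 1.71-fold.

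**Figure D3:**
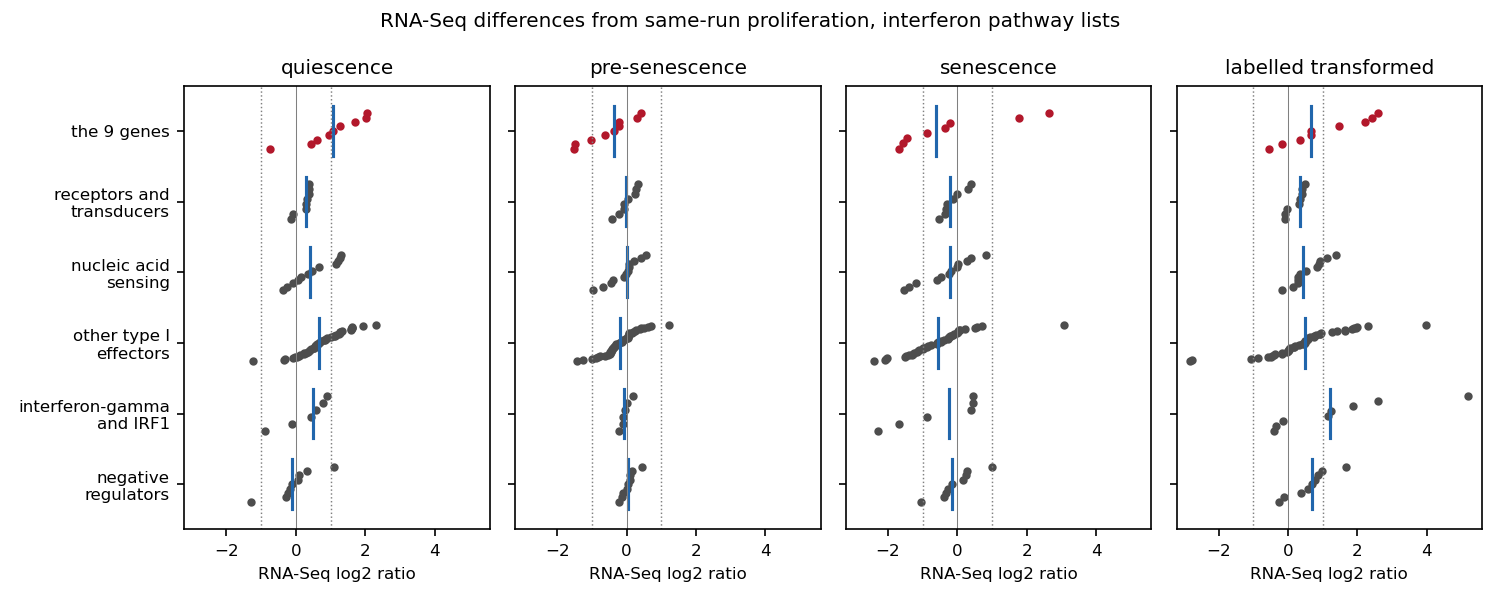
RNA-Seq log2 ratio of each state to the proliferating column of its run for the 9 genes (red) and for genes of 5 pathway lists (dark grey), 1 point per gene above 1 FPKM in the state or its control; blue bars are medians and dotted lines mark 2-fold. The medians of the 9 genes and of the other type I effectors lie above 0 in quiescence (1.06 and 0.67) and below 0 in senescence (-0.61 and -0.57).

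The transcripts most like the genes in pattern were ranked by Pearson's r over 8 values, the log2 ratios of the 4 states in both assays, with the mean of the 7 genes above 1 FPKM in every column. The 8 values share controls and libraries, so r is given as a description only. Of 3674 transcripts, the nearest were CUEDC1 (0.976), DDIT4 (0.972), HDAC6 (0.968), SH3PXD2B (0.960), ZBTB12 (0.953), RP4-697K14.7 (0.948), PARP14 (0.946) and C1QTNF1 (0.940). PARP14 was the single one of these in the lists. The 7 genes themselves had r of 0.46 (IFI6) to 0.98 (IRF9) with their mean, so the mean hides the split between IFI6 and the IFIT genes.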

How the data were processed

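RNA-Seq (9 samples) and Ribo-Seq (8 samples) of BJ fibroblasts were deposited as 1 table. Reads had been aligned by the authors with Bowtie (version not given in the sources used here) to 1 Ensembl release 65 transcript per gene, uniquely mapped reads only; hg19 is the build in the submitters' notes. The deposited FPKM values were computed by the authors over the whole transcript (RNA-Seq) or coding sequence (Ribo-Seq), and values below 1 were set to 1. Of 12 columns, 7 are single samples and 5 are the authors' values for pairs of samples (run 1 proliferation and quiescence in both assays, pre-senescence in RNA-Seq), with no spread and the pooling not stated; the runs follow the study's sample list. The depth behind each value cannot be recovered from the table, which holds no counts or transcript lengths, and transcripts with few reads had been left out by the authors.

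Log2 ratios to the same-run proliferating column used no pseudocount. A transcript was tested in RNA-Seq or Ribo-Seq if the state or its control was above 1, and in TE if all 4 values were. Calls were 2-fold. With 1 column per state and run there were no p-values. Genes and lists were chosen with earlier results of these data known. All 9 genes were named; up to 4 examples of a list were the largest absolute RNA-Seq ratios, and alternative symbols counted once. Nearest transcripts had an SD of at least 0.5 over their 8 ratios. Alternatives were a pseudocount of 1, no filter, a filter at 5 FPKM, the other control, median subtraction, calls beyond the difference between controls and, added after the data were seen, an exchange of the Ribo-Seq columns with contradictory labels and, for the pathway lists, the other control. Ratios and calls were tested on simulated data. Python 3.11.15, numpy 2.4.6, pandas 2.3.3 and matplotlib 3.10.9 were used. Some genes of the lists and checks are not reported here.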

Additional observations from a re-analysis of the deposited data

Results flagged for a closer look

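IFI6 was past 2-fold in opposite directions at the 2 time points of RAS, each against the proliferating column of its own run. In RNA-Seq the log2 ratio was -1.51 at day 5 and 2.65 at day 14, and in Ribo-Seq -1.11 and 2.61. The difference between the time points was not tested, since each is 1 column, and the time points were sequenced in different runs. The difference of IFI6 between the proliferating columns, run 2 minus run 1, was -0.38 in RNA-Seq and -1.14 in Ribo-Seq.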

How the results depend on the processing

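No paired analysis was possible because the deposited columns carry no replicate numbers and no state has more than 1 column in a run, and for the same reason no replicate could be left out. Of the 12 counts of genes past 2-fold, 11 stayed within 1.5 times under each of 5 alternatives and 9 with the control of the other run. These counts take higher and lower genes together, so a steady count can hold different genes. The exceptions follow, and for those whose cause is not in the setting itself the cause was not tested. In pre-senescence the RNA-Seq count went from 3 to 1 with a pseudocount of 1, the Ribo-Seq count from 2 to 4 with the other control and to 1 with the median subtracted or when the difference had to exceed that between controls, and the TE count from 1 to 2 with no filter or the other control. In quiescence the TE count went from 1 to 0 with the filter at 5 FPKM and to 2 with the other control. With the other control the column labelled transformed kept a count of 4 in RNA-Seq, of which 2 were the same genes. The pre-senescent RNA-Seq count went from 3 to 4 with that control, with IFI6 the single gene called lower in both. In senescence IFIT2 RNA was also not called with the filter at 5 FPKM, and in the column labelled transformed neither were OAS1 footprints. IFI6 footprints in pre-senescence reversed to a log2 ratio of 0.027 with the other control. Exchanging the Ribo-Seq columns with contradictory labels reversed the senescent footprint ratios of IFIT1 (2.40), IFIT2 (2.40), IFIT3 (1.68), IRF9 (1.10) and IFI6 (-2.61) by construction, and gave counts of 7 for TE in senescence and of 6 (Ribo-Seq) and 5 (TE) in the column labelled transformed. Values of 1 or less bound the folds of OAS1 and MX1.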

Other observations

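The genes here were picked after their values were seen and are given as values only. DDX58, which encodes the RNA sensor RIG-I, had more footprints than its control in all 4 states: 14.4 FPKM in quiescence and 19.3 in pre-senescence against 7.35, and 18.4 in senescence and 19.0 in the column labelled transformed against 7.81. Its RNA differed by less, with 7.87 and 7.31 FPKM against 4.97, and 6.88 and 9.40 against 5.24.

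The IFITM genes, which encode membrane proteins that block virus entry, differed between the proliferating columns mainly in footprints. IFITM1 had 70.1 FPKM of footprints in run 1 and 223 in run 2, IFITM2 77.4 and 320.5, and IFITM3 191 and 653, while their RNA was at 52.3 and 69.7, at 102 and 179, and at 279 and 345 FPKM. IFITM2 and IFITM3 footprints in senescence (77.1 and 239 FPKM) were therefore below the run 2 control, and near or above that of run 1. Only uniquely mapped reads had been kept, and how far that affected the genes of this family in either assay was not tested.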
